A study of Mus musculus with 18 samples.

Results

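Antigen processing for major histocompatibility complex (MHC) class I was followed through 10 genes: the inducible catalytic subunits of the proteasome Psmb8, Psmb9 and Psmb10, the proteasome activator subunits Psme1 and Psme2, the peptide transporter genes Tap1 and Tap2, the loading factor Tapbp, the trimming peptidase Erap1 and the transactivator Nlrc5. The 10 were chosen by their place in the pathway, out of 33440 features in the count table. The series had 18 libraries of mouse adipocytes in which interferon regulatory factor 3 (IRF3), a transcription factor of innate immunity, was either switched on or deleted.

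All mice were C57BL/6. In the gain-of-function experiment, cells of the stromal vascular fraction (SVF) of inguinal white fat from IRF3-2D mice, which carry a silent allele of a constitutively active Irf3, were differentiated into adipocytes and infected with adeno-associated virus (AAV). Nothing in the labels restricts the virus to one cell type. Virus with Cre turned the allele on in the group called FI3OE (3 libraries). Virus with GFP left it off in the control group, called WT, which therefore also carried the allele (3 libraries). No group received Cre without the allele, so an effect of Cre itself cannot be told apart from that of IRF3. In the loss-of-function experiment, mice with Irf3 deleted through a Cre driven by the Adipoq promoter (FI3KO, 6 libraries) and Ad-NuTRAP control mice (WT, 6 libraries) ate a high-fat diet (HFD) for 8 weeks at thermoneutrality. Both carried the GFP-tagged ribosome of the NuTRAP allele, and RNA was taken from frozen epididymal fat by translating ribosome affinity purification (TRAP), a pulldown of those ribosomes with an antibody to GFP. Overexpression was thus measured in total RNA of cultured cells of 1 depot and deletion in ribosome-bound RNA of another depot, so the experiments were analysed apart. The labels call the libraries biological replicates without saying which animals or cultures they came from.

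The proteasome cuts cytosolic proteins into peptides. Interferon exchanges the catalytic subunits Psmb5, Psmb6 and Psmb7 for Psmb8, Psmb9 and Psmb10 in newly built particles, which are then called immunoproteasomes, and adds the PA28 activator of Psme1 and Psme2. The Tap1 and Tap2 transporter carries the peptides into the endoplasmic reticulum. There Erap1 trims their ends and Tapbp, or tapasin, holds the transporter to class I molecules waiting for a peptide. Nlrc5 drives transcription of the class I genes and of several of these partners. The pathway is known for its strong response to interferon, in fat as in other tissues.

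The proximal sequences are shown for the genes that carry the results: Psmb8, which had the highest fold change after IRF3 activation, Tap1, whose window overlaps that of Psmb9 on the opposite strand, and Psme1 and Erap1, in which an interferon-response letter pattern was found. Each is the RefSeq window of GRCm38.p6 from 250 bases before to 50 bases after the annotated start, written 5′ to 3′ on the gene's strand, with motif matches in capitals. The motifs searched on both strands were GAAANNGAA, the core of the interferon-stimulated response element (ISRE), and TTCNNNGAA, the gamma-activated site (GAS), which is its own reverse complement. The positions are Psmb8 at chr17:34197945-34198244 on the plus strand, Tap1 at chr17:34187306-34187605 on the plus strand, Psme1 at chr14:55578244-55578543 on the plus strand and Erap1 at chr13:74639603-74639902 on the plus strand.
Psmb8: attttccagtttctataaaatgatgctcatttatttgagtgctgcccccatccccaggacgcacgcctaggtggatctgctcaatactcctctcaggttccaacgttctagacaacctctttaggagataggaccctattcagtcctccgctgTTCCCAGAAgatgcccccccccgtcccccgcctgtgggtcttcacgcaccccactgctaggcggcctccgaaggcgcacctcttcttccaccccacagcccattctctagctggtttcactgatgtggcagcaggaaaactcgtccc
Tap1: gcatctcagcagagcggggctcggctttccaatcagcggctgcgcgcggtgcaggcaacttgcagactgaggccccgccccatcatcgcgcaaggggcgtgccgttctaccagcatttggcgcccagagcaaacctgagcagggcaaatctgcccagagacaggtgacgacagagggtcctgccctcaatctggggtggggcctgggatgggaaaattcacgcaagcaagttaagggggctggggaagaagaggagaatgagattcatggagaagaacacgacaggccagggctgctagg
Psme1: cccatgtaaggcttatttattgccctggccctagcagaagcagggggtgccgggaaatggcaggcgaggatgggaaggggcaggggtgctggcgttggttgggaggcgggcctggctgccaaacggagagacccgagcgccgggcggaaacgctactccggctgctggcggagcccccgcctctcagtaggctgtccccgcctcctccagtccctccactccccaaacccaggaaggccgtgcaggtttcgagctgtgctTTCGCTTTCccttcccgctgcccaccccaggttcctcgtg
Erap1: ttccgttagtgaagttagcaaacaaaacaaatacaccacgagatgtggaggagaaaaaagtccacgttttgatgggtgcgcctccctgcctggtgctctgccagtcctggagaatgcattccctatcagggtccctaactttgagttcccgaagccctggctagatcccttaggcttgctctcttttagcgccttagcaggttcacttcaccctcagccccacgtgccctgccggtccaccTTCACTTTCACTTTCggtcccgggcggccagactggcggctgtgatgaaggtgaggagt

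Of the 10 genes, 8 had a window in the RefSeq table and Tap2 and Nlrc5 had none. The ISRE letters were found in 2 of these 8, Psme1 and Erap1, against 9.76% of 27025 genes with a window of that length. In the gene lists used below they were in 3 of 12 constitutive proteasome genes, 2 of 8 class I heavy chains and 0 of 7 peptidases. In Erap1 the matches were 2 overlapping ones, at bases -9 and -3 from the start. In Psme1 the match began 10 bases after it. The GAS letters were found in Psmb8 alone, beginning at base -97, against 9.55% of all genes. The Tap1 window shared 275 bases with the Psmb9 window at chr17:34187281-34187580, minus strand, and held neither pattern. A match describes the letters only, and other forms of these elements were not searched.

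Read totals lay between 21541334 and 40490283 per library. Irf3 itself stood at 56.8 to 58.6 CPM (read counts scaled to the library total) in WT SVF-derived adipocytes and at 90.8 to 100.3 CPM in FI3OE. In TRAP RNA it stood at 17.2 to 23.2 CPM in WT and 12.4 to 18.8 CPM in FI3KO. The transcript Irf3-202 held 40.2% of the gene's TPM (a level scaled to transcript length and library total) in WT TRAP libraries and was listed at 0 in all 6 FI3KO libraries. Per length the gene went the other way in TRAP RNA, from 37.8 to 47.3 TPM in WT to 55.05 to 93.5 TPM in FI3KO, where the transcript Irf3-211 held 64.9% of its TPM, against 2.67% in WT. The 9 adipocyte markers summed to 5011 to 5486 CPM in the SVF-derived cells and to 21630 to 31010 CPM in TRAP RNA. The 15 macrophage and other myeloid markers summed to 2504 to 2703 CPM in the SVF-derived cells, so those cultures held RNA that the adipocyte label does not name, and to 15.0 to 116.1 CPM in TRAP RNA. The 4 T and B cell markers summed to at most 1.03 CPM. In such bulk RNA, fewer cells of a type and less RNA per cell cannot be told apart.

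In the WT libraries all 10 genes were measured, at levels that differed widely when compared per transcript length. Tapbp led with 612 ± 5.96 TPM (SD, n = 3) in WT SVF-derived adipocytes. Psme1 followed at 258 ± 5.00 TPM, then Psme2 at 242 ± 2.49 TPM and Psmb8 at 182 ± 15.2 TPM. Tap1 at 87.0 ± 7.86 TPM, Psmb10 at 81.6 ± 4.65 TPM and Tap2 at 76.4 ± 2.93 TPM overlapped with their neighbours in this order. Erap1 lay at 65.8 ± 5.59 TPM, Psmb9 at 57.4 ± 1.22 TPM and Nlrc5 lowest at 32.5 ± 2.92 TPM. These last ranks did not overlap between libraries, but that of Erap1 rests largely on short transcripts, described below.

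In WT TRAP RNA (n = 6), Tapbp again led, at 990 ± 102 TPM, ahead of Psme2 at 218 ± 15.8 TPM and Psme1 at 155 ± 7.66 TPM, with no overlap. Psmb10 at 81.0 ± 21.96 TPM overlapped Erap1 at 61.0 ± 9.18 TPM, which overlapped Tap2 at 52.8 ± 4.29 TPM. Psmb8 at 36.2 ± 4.86 TPM overlapped Tap1 at 31.4 ± 2.70 TPM. Nlrc5 at 23.01 ± 1.82 TPM and Psmb9 at 21.9 ± 2.22 TPM closed the order and overlapped each other. Set side by side, Psmb8 was at rank 4 of the 10 in the cultures and at rank 7 in TRAP RNA. Culture against tissue of live mice, diet, virus, genotype, depot, kind of RNA and the level of myeloid markers differed between these groups together. Their parts cannot be told apart and no test was made.

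IRF3 activation was followed by a higher level of every one of the 10 genes. By the quasi-likelihood test of edgeR, Benjamini-Hochberg adjusted over 16105 genes, all 10 rose in FI3OE, with log2 fold changes from 0.64 to 1.32 and a median of 0.92, against a median of 0.00 for all genes tested. Of all genes tested, 20.2% were called higher and 16.8% lower. With a log2 fold change of at least 1 also asked for, 4 of the 10 passed, against 1.99% of all genes. For each of the 10, the lowest FI3OE library lay above the highest WT library in CPM, as it did for 24.1% of all genes tested.

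**Figure D1:**
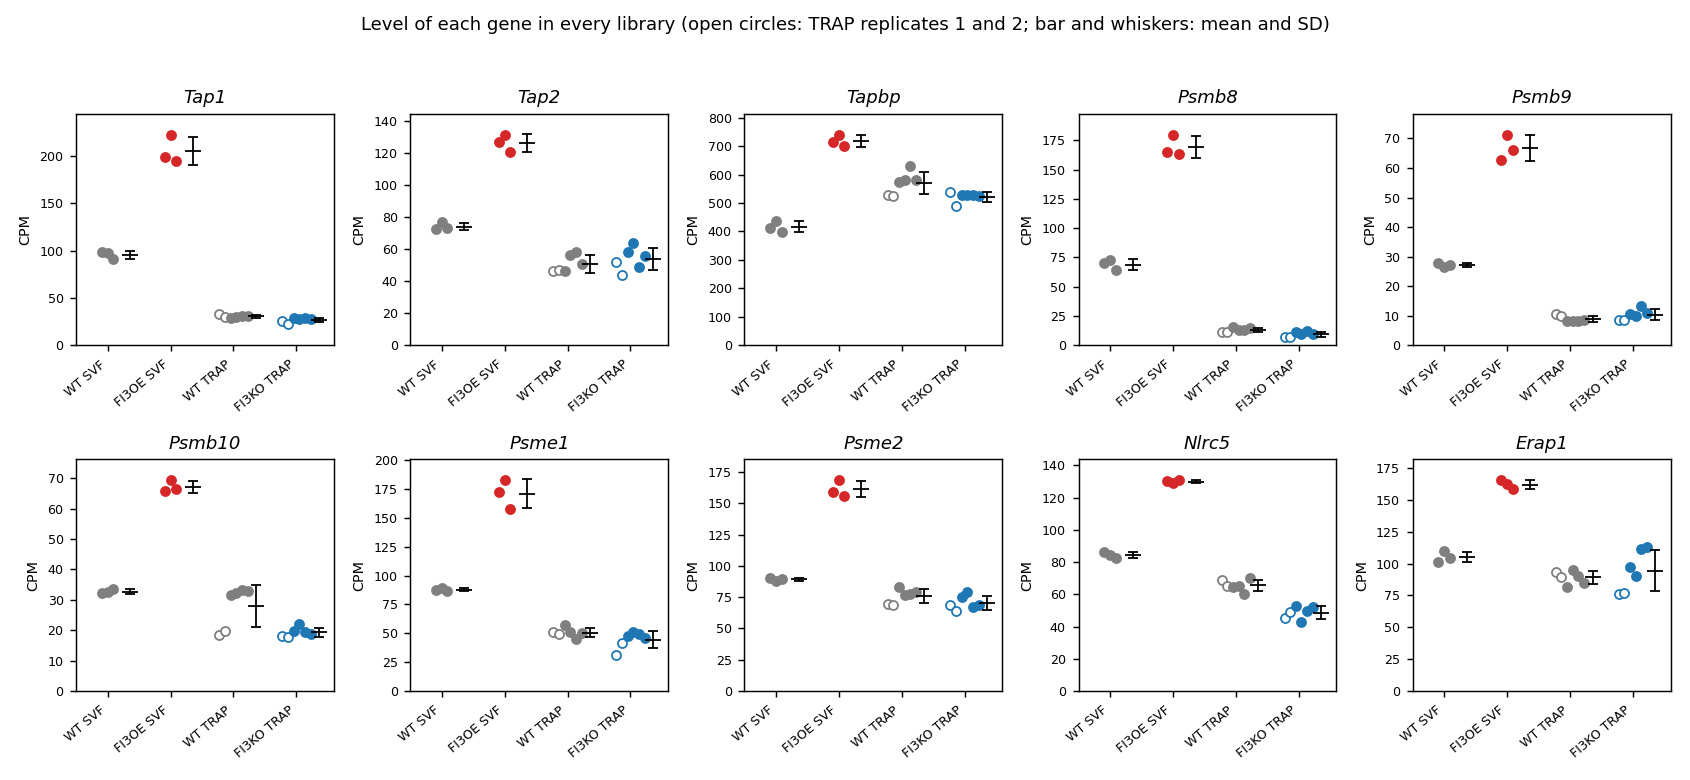
CPM of each gene in every library, 1 panel per gene, with 3 WT SVF, 3 FI3OE SVF, 6 WT TRAP and 6 FI3KO TRAP libraries as points (each panel has its own axis from 0), the TRAP replicates 1 and 2 as open circles, and mean and SD at the right of each group. FI3OE lies above WT without overlap in all 10 panels, against 24.1% of all genes tested. In TRAP RNA FI3KO lies below WT without overlap for Tap1, by a narrow gap, and Nlrc5 only, against 9.84% of all genes. CPM here is scaled to the library total only, without the further scaling of the test.

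Psmb8 and Psmb9, catalytic subunits of the immunoproteasome, had the highest fold changes. Psmb8, which replaces Psmb5, stood at 69.9, 72.5 and 64.0 CPM in the WT libraries and at 164.6, 179.8 and 163.3 CPM in FI3OE. Its log2 fold change was 1.32 ± 0.06 (SE), with an adjusted p of 1.2e-08 in edgeR. Psmb9, which replaces Psmb6, stood at 27.9, 26.6 and 27.1 CPM in WT and at 62.7, 71.3 and 66.1 CPM in FI3OE. Its log2 fold change was 1.31 ± 0.06 (adjusted p = 1.4e-08, edgeR). Psmb10, which replaces Psmb7, stood at 32.1, 32.4 and 33.6 CPM in WT and at 65.8, 69.3 and 66.3 CPM in FI3OE, a log2 fold change of 1.05 ± 0.05 (adjusted p = 1.4e-08, edgeR).

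The activator genes rose as well. Psme1, the alpha subunit of PA28, stood at 87.3, 89.0 and 87.0 CPM in WT and at 172.7, 182.4 and 157.5 CPM in FI3OE (log2 fold change 0.98 ± 0.05). Psme2, its beta subunit, stood at 90.1, 87.6 and 89.7 CPM in WT and at 159.3, 168.3 and 156.0 CPM in FI3OE (log2 fold change 0.87 ± 0.04). Their 95% intervals, 0.86 to 1.09 for Psme1 and 0.78 to 0.96 for Psme2, overlapped.

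The transporter and loading genes followed. Tap1, the first transporter subunit, stood at 98.7, 97.7 and 90.8 CPM in WT and at 198.6, 222.7 and 194.7 CPM in FI3OE, a log2 fold change of 1.12 ± 0.06. Tap2, its partner, stood at 72.3, 76.6 and 72.8 CPM in WT and at 126.8, 131.3 and 120.2 CPM in FI3OE, a log2 fold change of 0.79 ± 0.04. The 95% interval of Tap1, 0.99 to 1.24, lay above that of Tap2, 0.69 to 0.89. Tapbp stood at 413.0, 436.9 and 399.6 CPM in WT and at 713.8, 740.7 and 699.3 CPM in FI3OE, a log2 fold change of 0.80 ± 0.04.

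The smallest rises were those of the transactivator and the trimming peptidase. Nlrc5 stood at 86.2, 84.3 and 82.5 CPM in WT and at 130.2, 128.8 and 130.7 CPM in FI3OE (log2 fold change 0.64 ± 0.03). Erap1 stood at 101.3, 109.6 and 104.2 CPM in WT and at 165.2, 162.6 and 158.1 CPM in FI3OE (log2 fold change 0.64 ± 0.04). Erap1 had the largest adjusted p of the 10 in edgeR, 4.2e-07. The myeloid markers summed to 2536 to 2703 CPM in WT and to 2504 to 2525 CPM in FI3OE, and single markers differed both ways. Of 15 tested, 2 fell, Mrc1 by 0.87 and Csf1r by 0.45, and 4 rose, Ctss most at 0.33, with a median of 0.05 over the list. The part of these markers in the rises was not tested.

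**Figure D2:**
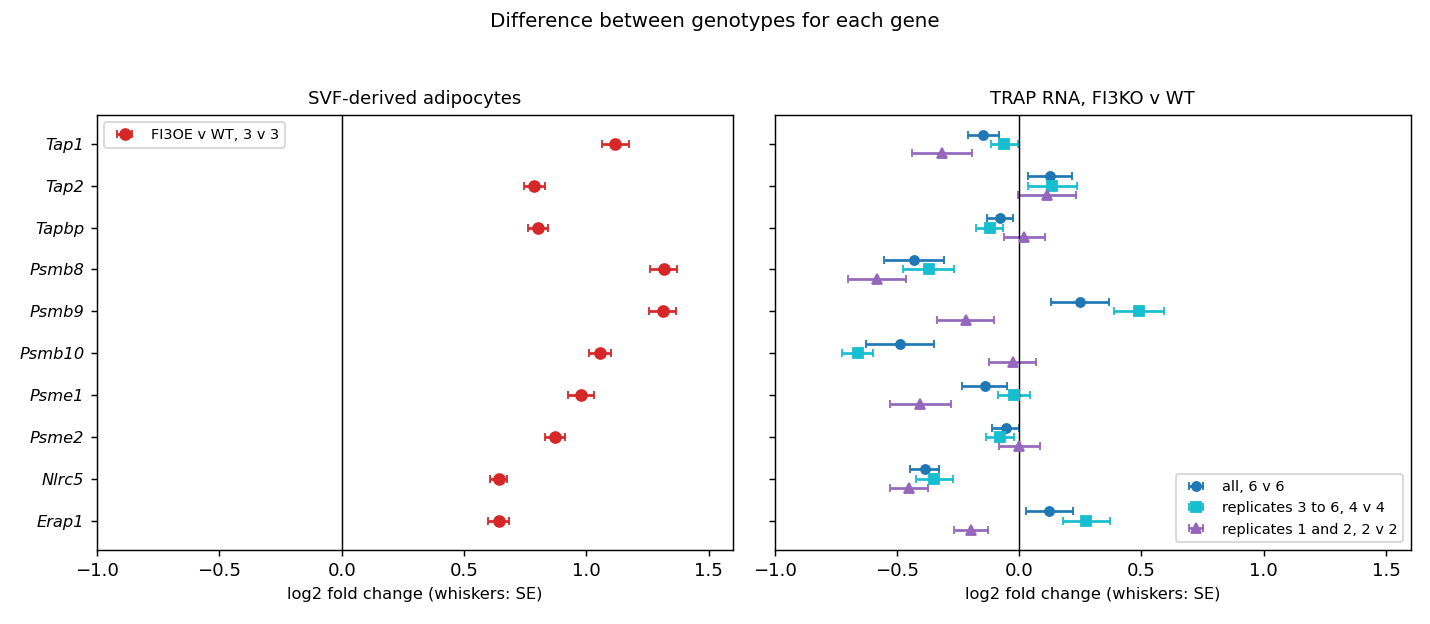
Log2 fold change of each gene with its SE, on the left for FI3OE against WT SVF-derived adipocytes, on the right for FI3KO against WT in TRAP RNA, over all libraries and within replicates 3 to 6 and replicates 1 and 2. On the left all 10 lie between 0.64 and 1.32; on the right they lie on both sides of 0, and Psmb9, Psmb10 and Erap1 differ between the replicate sets.

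Around these 10, other genes of the pathway were counted from lists written from general knowledge. All 8 class I heavy chain genes rose in FI3OE. Their log2 fold changes had a median of 1.31 and were largest for H2-Q6 at 1.99. Of 5 loading partners, B2m, the light chain of class I, rose by 0.86 and the tapasin relative Tapbpl rose by 0.67. The general chaperones of the endoplasmic reticulum in that list, which fold many proteins, fell: Calr fell by 0.78, Pdia3 fell by 0.66 and Canx fell by 0.46. All 15 constitutive proteasome genes and Pomp, counted together, rose too, but by less, with a median of 0.41 and the largest value, 0.64, for Psmb2. The counterparts that the inducible subunits replace changed by 0.37 for Psmb5, 0.33 for Psmb6 and 0.34 for Psmb7, all called higher.

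Of the other activators and the inhibitor, Psmf1 rose by 0.39 and Psme4 fell by 0.15, while Psme3, the gamma form of the PA28 family, changed by -0.10 with an adjusted p of 0.0638 in edgeR. Among 7 peptidases Blmh rose by 0.13, Lnpep fell by 0.12 and 5 did not pass the test. Of 12 upstream factors 6 were called higher and 0 lower, against 20.2% and 16.8% of all genes tested. Among them Irf7, itself an interferon regulatory factor, rose by 1.23. Irf3, the gene engineered, rose by 0.73 and Irf1 by 0.64. Ciita, the class II transactivator, and Rfx5, which binds MHC promoters, changed by 0.04 and 0.11, with adjusted p of 0.935 and 0.268 in edgeR.

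**Figure D3:**
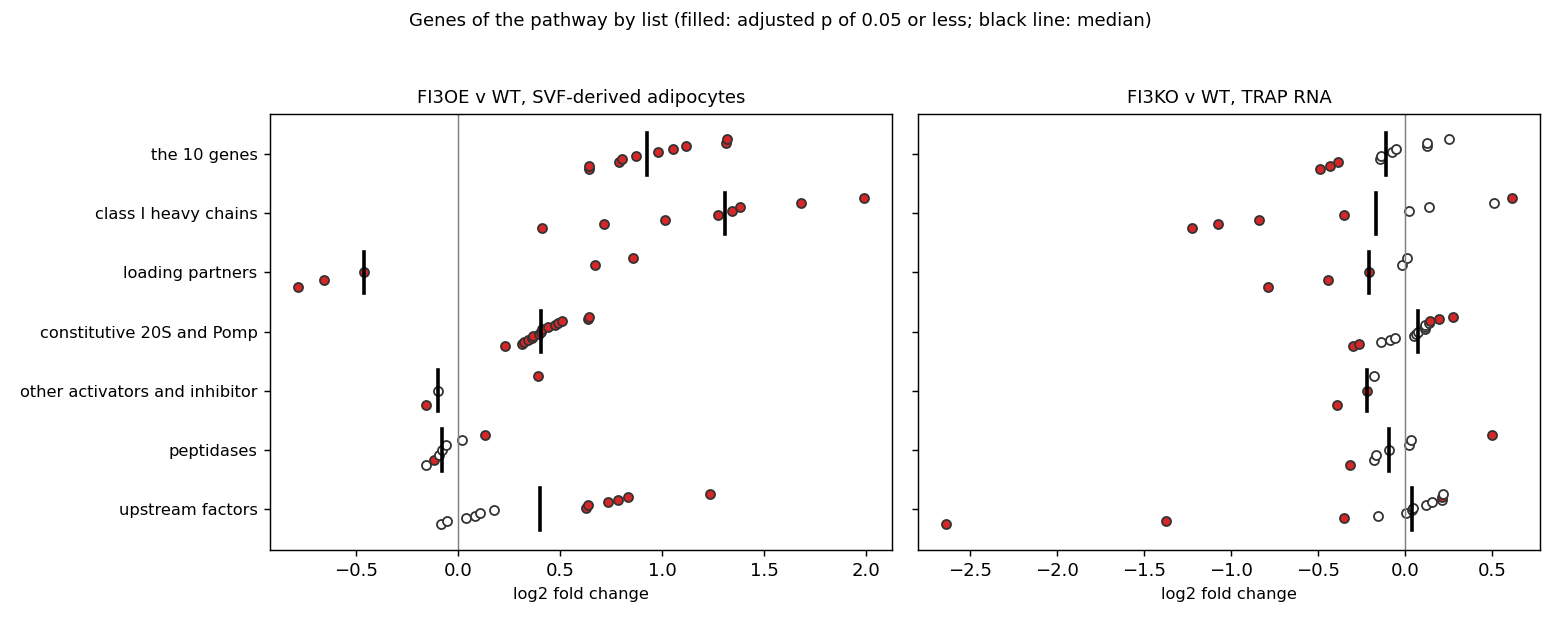
Log2 fold change of every tested gene in each list, FI3OE against WT SVF-derived adipocytes on the left and FI3KO against WT TRAP RNA on the right (the x axes differ), filled where the adjusted p was at most 0.05, with the median of each list as a black line. On the left the 10 genes have a median of 0.92 and the constitutive proteasome list 0.41; on the right the medians are -0.11 and 0.08.

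Because the inducible and constitutive subunits fill the same place in the particle, their balance was followed as the share of the inducible form in the summed TPM of both. In the beta5 place, Psmb8 held 55.3, 54.2 and 51.0% in WT SVF-derived adipocytes and 69.8, 71.3 and 67.6% in FI3OE. In the beta1 place, Psmb9 went from 30.4, 29.8 and 29.0% to 44.1, 49.0 and 46.4%. In the beta2 place, Psmb10 went from 44.3, 43.3 and 47.3% to 55.8, 55.5 and 55.3%. The groups did not overlap for any of the 3 shares, and the mean differences were 16.1, 16.8 and 10.6 percentage points. An exact two-sided permutation test gave p = 0.1 for each (adjusted 0.12 over 6 tests), the smallest that 3 against 3 libraries allow. This is a share of RNA, not of assembled particles.

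In TRAP RNA the shares overlapped between genotypes. Psmb8 held a lowest, median and highest share of 15.6, 18.05 and 21.6% in WT and 8.03, 13.2 and 19.0% in FI3KO, and Psmb10 held 31.4, 43.7 and 46.3% in WT and 28.7, 30.3 and 35.7% in FI3KO. The exact two-sided permutation p was 0.026 for Psmb8 and 0.0173 for Psmb10, both 0.0779 after adjustment over the 6 tests. Psmb9 held 10.3 to 13.5% in WT and 7.99 to 14.3% in FI3KO (exact permutation p = 0.647). No adjusted p in TRAP RNA passed 0.05 over the 6 tests. Those included the tests in SVF-derived adipocytes, which could not give a p below 0.1 and which raised the adjusted values. An adjustment over the TRAP tests alone was not made, so this result depends on the tests counted together. The group means were also taken apart by replicate number, 1 and 2 against 3 to 6, with no test. For Psmb10 they were 31.5% in FI3KO and 44.7% in WT in replicates 3 to 6, and 30.9 and 32.3% in replicates 1 and 2. For Psmb8 they were 15.3 and 17.96% in replicates 3 to 6, and 9.01 and 19.7% in replicates 1 and 2. For Psmb9 the sign differed, with 11.9 and 10.4% in replicates 3 to 6 and 8.68 and 13.4% in replicates 1 and 2.

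**Figure D4:**
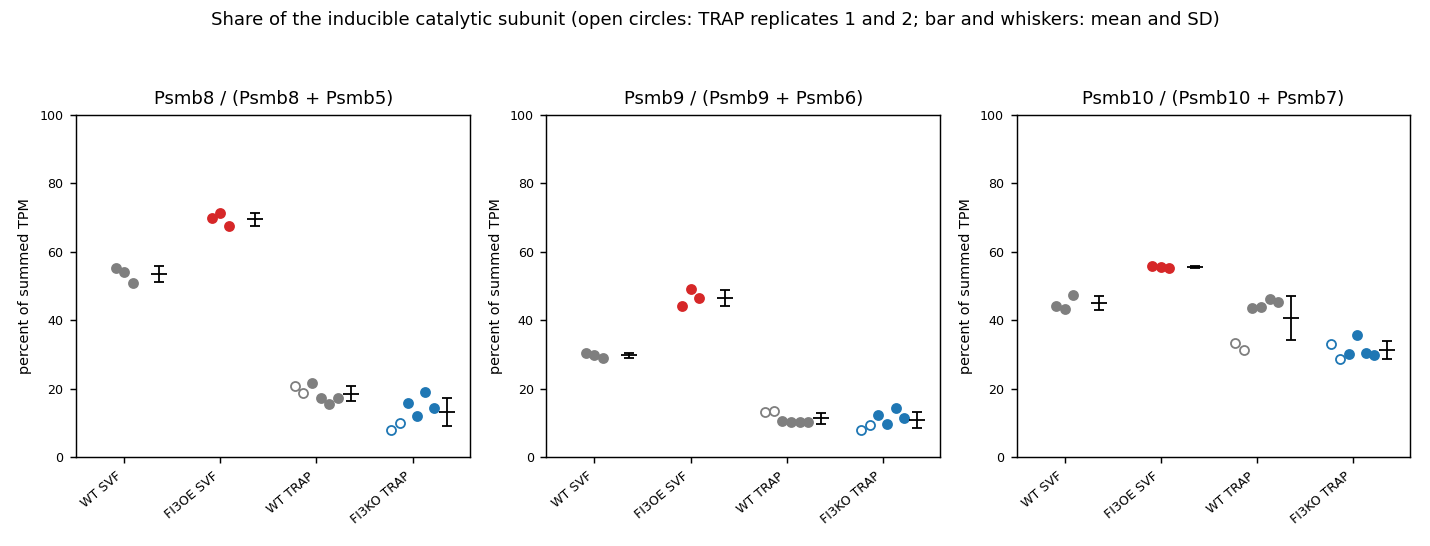
Share of the inducible subunit in the summed TPM of the inducible and the constitutive subunit, in percent, for the 3 catalytic places and every library, with mean and SD; open circles are TRAP replicates 1 and 2. The FI3OE libraries lie above WT in each panel, and the TRAP libraries overlap in each.

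After deletion of Irf3 in adipocytes, 3 of the 10 had a called difference in TRAP RNA, against 37.4% of all genes tested in either direction. By the same edgeR test, adjusted over 13624 genes, Nlrc5, Psmb8 and Psmb10 fell in FI3KO and the other 7 did not pass. The median log2 fold change of the 10 was -0.11, against 0.02 for all genes. Of all genes tested 18.3% were called lower and 19.1% higher. When the fold cutoff used for FI3OE was added, none of the 10 passed, against 4.87% of all genes lower and 1.74% higher. For 2 of the 10, Tap1 and Nlrc5, all FI3KO libraries lay below all WT libraries in CPM, and for none above. This compares with 9.84% of all genes below and 5.39% above. CPM leaves out the library scaling of the test, and for Tap1 the gap was narrow and did not hold with that scaling.

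Nlrc5 was the clearest. Its lowest, median and highest level was 60.2, 65.0 and 69.9 CPM in WT and 43.0, 49.3 and 52.8 CPM in FI3KO. All 6 FI3KO libraries lay below all 6 WT libraries, and the log2 fold change was -0.39 ± 0.06 (adjusted p = 0.000524, edgeR). In replicates 3 to 6 the difference was -0.35, and in replicates 1 and 2 it was -0.45. An interaction test between these sets did not pass (adjusted p = 0.547, edgeR).

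Psmb8 lay at 11.02, 12.9 and 15.4 CPM in WT and at 7.13, 9.26 and 12.2 CPM in FI3KO, and 4 of 6 FI3KO libraries lay below all WT libraries. Its log2 fold change was -0.43 ± 0.12 (adjusted p = 0.0148, edgeR). Within replicates 3 to 6 it was -0.37 (adjusted p = 0.0138), and within replicates 1 and 2 it was -0.58 (adjusted p = 0.0581).

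Psmb10 lay at 18.6, 32.0 and 33.1 CPM in WT and at 17.7, 19.0 and 22.2 CPM in FI3KO, with a log2 fold change of -0.49 ± 0.14 (adjusted p = 0.0152, edgeR). The spread within WT was wide: WT replicates 1 and 2 stood at 18.6 and 19.6 CPM and WT replicates 3 to 6 at 31.7, 32.4, 33.1 and 33.0 CPM. All 6 FI3KO libraries lay at 17.7 to 22.2 CPM. The difference was therefore -0.66 (adjusted p = 2.2e-05) in replicates 3 to 6 and -0.03 (adjusted p = 0.880) in replicates 1 and 2, and Psmb10 was not called in the latter.

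Since earlier results had shown the TRAP libraries to differ by set of replicate numbers, the genotype effect in replicates 1 and 2 was tested against that in replicates 3 to 6, as an interaction in edgeR. The sets are not groups of the study, and the 2 WT libraries of replicates 1 and 2 were the most alike pair of the series. The effect differed for 3 of the 10 genes, Psmb9, Psmb10 and Erap1, against 26.5% of all genes tested. For Psmb10 it was 0.63 higher on the log2 scale in replicates 1 and 2 (adjusted p = 0.00158).

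Psmb9 had opposite signs in the sets and was called in replicates 3 to 6 only. In replicates 3 to 6 it stood at 8.25, 8.23, 8.16 and 8.41 CPM in WT and at 10.7, 10.0, 13.3 and 10.9 CPM in FI3KO, and rose by 0.49 (adjusted p = 0.00264, edgeR). In replicates 1 and 2 it stood at 10.5 and 10.0 CPM in WT and at 8.44 and 8.46 CPM in FI3KO, a log2 difference of -0.22 (adjusted p = 0.267). The interaction was -0.71 (adjusted p = 0.00701), and over all libraries the log2 fold change was 0.25 ± 0.12 (adjusted p = 0.115).

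Erap1 also had opposite signs in the sets. In replicates 3 to 6 it stood at 81.4, 95.1, 90.4 and 84.4 CPM in WT and at 97.6, 90.3, 111.2 and 112.8 CPM in FI3KO, and rose by 0.28 (adjusted p = 0.0333, edgeR). In replicates 1 and 2 it stood at 93.4 and 89.7 CPM in WT and at 75.9 and 77.1 CPM in FI3KO, a log2 difference of -0.20 (adjusted p = 0.140). Its interaction of -0.48 had an adjusted p of 0.0305, which rose to between 0.0661 and 0.107 when FI3KO replicate 1 or 2 or WT replicate 1, 2 or 6 was left out.

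In replicates 3 to 6 alone, 3 of the 10 fell and 2 rose, against 24.8% of all genes lower and 25.7% higher. In replicates 1 and 2 alone, Nlrc5 fell (adjusted p = 0.0454) and the other 9 did not pass, against 1.98% of all genes lower and 1.58% higher.

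The remaining 5 genes did not pass in TRAP RNA. Tap1 had 22.4, 27.8 and 28.5 CPM as its lowest, median and highest level in FI3KO and 28.7, 30.5 and 32.9 CPM in WT. Those groups did not overlap in CPM, but the gap was narrow. CPM left out the library scaling of the test (TMM factors), 1.047 for WT replicate 3 and 0.989 for FI3KO replicate 5. These libraries stood at 28.7 and 28.4 CPM, and with the factors their order reverses. The log2 fold change of Tap1 was -0.15 ± 0.06, with an adjusted p of 0.0828 in edgeR. Tap2 had 43.8 to 63.6 CPM in FI3KO and 46.0 to 58.3 CPM in WT (log2 fold change 0.13 ± 0.09). Tapbp had 488.2 to 537.4 CPM in FI3KO and 526.2 to 630.3 CPM in WT (log2 fold change -0.08 ± 0.05). Psme1 had 31.4 to 50.8 CPM in FI3KO and 45.4 to 57.0 CPM in WT (log2 fold change -0.14 ± 0.09), and Psme2 had 64.0 to 78.9 CPM in FI3KO and 68.6 to 83.0 CPM in WT (log2 fold change -0.06 ± 0.05). The 95% intervals of the log2 fold change were -0.28 to -0.01 for Tap1, -0.07 to 0.32 for Tap2, -0.19 to 0.04 for Tapbp, -0.34 to 0.06 for Psme1 and -0.17 to 0.06 for Psme2.

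The other genes of the pathway were mixed in TRAP RNA. Of 8 class I heavy chains, 4 fell, H2-Q6 most at -1.23, and H2-T22 rose by 0.61. For 4 of the 5 called heavy chains the effect differed between the replicate sets (interaction adjusted p from 0.000855 to 0.00507, edgeR). In replicates 3 to 6 the log2 differences were -1.84 for H2-Q6, -1.63 for H2-Q7, -1.20 for H2-Q4 and 0.88 for H2-T22. In replicates 1 and 2 they were -0.01, -0.01, -0.05 and 0.17, none of them called. H2-K1, the other one that fell, differed by -0.43 and -0.19 in these sets, with an interaction that did not pass (adjusted p = 0.292, edgeR). Of the loading partners, B2m fell by 0.79, Calr fell by 0.44 and Pdia3 fell by 0.21. B2m differed by -0.54 in replicates 3 to 6 and by -1.29 in replicates 1 and 2, where it was not called (interaction adjusted p = 0.128, edgeR). Of the 15 constitutive genes with Pomp, Psmb6 rose by 0.27 and Psmb1 and Psmb4 also rose, Psmb2 fell by 0.30 and Psma6 also fell, and 10 did not pass. Psmb5 and Psmb7 changed by 0.11 each, with adjusted p of 0.370 and 0.0607 in edgeR. For Psmb5 the sets differed (interaction adjusted p = 0.0115, edgeR), with -0.06 in replicates 3 to 6 and 0.49 in replicates 1 and 2, neither called. Psme3 fell by 0.22 and Psme4 fell by 0.39, the latter with -0.49 in replicates 3 to 6 and -0.19 in replicates 1 and 2 (interaction adjusted p = 0.0458, edgeR).

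Among peptidases Lnpep rose by 0.50 and Tpp2 fell by 0.32. Lnpep differed by 0.69 in replicates 3 to 6 and by 0.17 in replicates 1 and 2 (interaction adjusted p = 0.0148, edgeR). Among upstream factors Irf1 rose by 0.21, and Irf8, Ciita and, in counts, Irf3 fell, Irf8 most at -2.64. Irf8 fell in both sets, at -3.31 in replicates 3 to 6 and -1.06 in replicates 1 and 2 (interaction adjusted p = 0.00507, edgeR). Ciita stood at -2.05 in replicates 3 to 6 and at -0.31, not called, in replicates 1 and 2 (interaction adjusted p = 0.00996, edgeR).

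Markers of other cell types moved with the genotype in these libraries, and differently in the replicate sets. Of 13 myeloid markers tested 12 fell, with a median log2 fold change of -1.60. Taken by set, that median came to -2.41 for replicates 3 to 6, and to 0.10 for replicates 1 and 2, where 4 of the 13 were negative. Their sum was 79.6 to 116.1 CPM in WT and 15.0 to 19.3 CPM in FI3KO in replicates 3 to 6, and 42.9 to 43.0 CPM in WT and 37.7 to 48.8 CPM in FI3KO in replicates 1 and 2. The 4 precursor and fibroblast markers were mixed, and over all libraries Dpt, a matrix protein gene and the most abundant of them, was the only one called, at 0.62 higher. In replicates 3 to 6 Dpt rose by 0.73, while Pdgfrb fell by 2.07, Pi16 fell by 1.55 and Pdgfra fell by 0.97. In replicates 1 and 2 Pdgfra rose by 1.06 and the other 3, all positive, were not called. The sum of the list was 86.5 to 117.1 CPM in WT and 84.6 to 130.1 CPM in FI3KO in replicates 3 to 6, and 106.2 to 112.2 CPM and 130.7 to 164.2 CPM in replicates 1 and 2. The endothelial markers summed to 15.2 to 16.8 CPM in WT and 21.9 to 42.6 CPM in FI3KO in replicates 1 and 2, and to 11.4 to 19.02 CPM and 10.7 to 16.2 CPM in replicates 3 to 6, with none called in edgeR in either set.

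Of the 9 adipocyte markers, Cebpa, Fabp4 and Plin1 rose, by 0.51, 0.30 and 0.26, Lep, the gene of the hormone leptin, fell by 1.63, and the median was 0.15. By set the median was 0.24 for replicates 3 to 6 and -0.16 for replicates 1 and 2, where 7 of the 9 were negative. Adipoq, the adiponectin gene, rose by 0.90 in replicates 3 to 6 and differed by -0.37, not called, in replicates 1 and 2 (interaction adjusted p = 0.000841, edgeR). Plin1 rose by 0.40 in the former and differed by -0.04 in the latter (interaction adjusted p = 0.0053, edgeR). Lep fell in both sets, at -1.99 and -0.85 (interaction adjusted p = 0.00173, edgeR). Lep stood at 6617 to 13300 CPM in WT and 2401 to 3912 CPM in FI3KO, and the sum over the list was 25740 to 31010 CPM in WT and 21630 to 23930 CPM in FI3KO. The part of any of these marker lists in the values of the 10 genes and of the heavy chains was not tested.

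How the reads fell on transcripts bears on these gene-level values. Psmb8-203, a protein-coding transcript, held 69.6% of Psmb8 TPM in WT TRAP and 59.3% in FI3KO TRAP, and the retained-intron Psmb8-205 held 24.4% and 34.7%. The retained-intron Tap2-202 held 68.5% of Tap2 TPM in WT TRAP and 60.1% in FI3KO. The non-coding Tapbp-202 held 44.8% of Tapbp TPM in WT TRAP and 49.8% in FI3KO, so by this estimate part of the high Tapbp TPM was not protein-coding. It is short, 649 bases, and had 1636 to 2431 reads per WT TRAP library, where the gene had 15958 to 20126. Erap1-201, of 5644 bases, held 39.3% of Erap1 TPM in WT SVF-derived adipocytes and 38.9% in WT TRAP, at 25.8 and 23.2 TPM. Most of the rest lay on Erap1-203, Erap1-205 and Erap1-206, of 354 to 660 bases. None of these had more than 175 reads in a WT library, against at least 2122 for Erap1-201. The rank of Erap1 by TPM therefore rests largely on few reads of short transcripts. The transcript split is an estimate from short reads.

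In GRCm38 coordinates Psmb9 (chr17:34181987-34187764, minus strand) and Tap1 (chr17:34187553-34197225, plus strand) overlap at their 5′ ends, and Psmb8 (chr17:34197721-34201454) and Tap2 (chr17:34203527-34216321) follow on the plus strand in the class II region of the MHC. Tapbp (chr17:33915899-33929292) lies further off on that chromosome. Psme1 (chr14:55578123-55581529, plus strand) and Psme2 (chr14:55587441-55591113, minus strand) are neighbours. Nlrc5 (chr8:94434356-94527272, plus strand), Psmb10 (chr8:105935735-105938444, minus strand) and Erap1 (chr13:74639568-74693201, plus strand) stand apart.

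The library kit did not mark strand, so reads of overlapping genes on opposite strands cannot be told apart. Tap1 and Psmb9 share 212 exonic bases, so each may hold reads of the other. The 3′ end of Erap1 shares 834 exonic bases with Cast, the gene of the calpain inhibitor calpastatin, which stood at 124 to 129 CPM in WT and 157 to 163 CPM in FI3OE SVF-derived cells, and at 162 to 179 CPM in WT and 165 to 234 CPM in FI3KO TRAP RNA. Psme1 shares 14 exonic bases with Emc9, at 12.2 to 41.5 CPM. Nlrc5 shares 78 with 9330175E14Rik, at 3.86 to 6.53 CPM in the SVF-derived cells and at most 0.451 CPM in TRAP RNA. The antisense genes over Psmb8, Psmb10, Tap2 and Tapbp reached at most 1.84 CPM. Zbtb22 lies within the span of Tapbp on the same strand, shares 149 exonic bases with it and stood at 13.8 to 20.7 CPM. Psme2 has a near copy, Psme2b, at 0.118 to 0.937 CPM in TRAP RNA and 2.53 to 7.92 CPM in the SVF-derived cells, and reads shared with it were split by the estimate.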

How the data were processed

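RNA was sequenced from 6 SVF-derived adipocyte and 12 TRAP libraries after Ribo-Zero depletion and Nextera XT preparation with 12 cycles of amplification. The authors deposited, per transcript, estimated counts (expected counts), TPM and effective length from Salmon 1.4.0 after trimming with fastp, on GRCm38 per the submitters' processing notes. The deposited TPM values were summed per gene for levels, and the deposited effective lengths served an offset for transcript length in an alternative.

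Estimated counts were summed per gene through the transcript identifiers, of which 117850 of 118733 matched. The unmatched ones held 0.375 to 1.08% of reads and were kept as features of their own. Counts were rounded and tested with edgeR 4.0.16 in R 4.3.3 (filterByExpr, TMM, glmQLFit and glmQLFTest without covariates), each experiment apart, with Benjamini-Hochberg adjustment over all genes tested and a call at an adjusted p of 0.05. SE was taken from the log2 fold change and the F statistic. CPM used all counts of a library, without TMM. Shares were compared with exact permutation tests in scipy 1.17.1. The tests were checked on simulated data. WT TRAP replicates 1 and 2 were the most alike pair, but they differed by more than sampling noise and were counted apart. That difference does not show that they came from separate animals. The tests within replicates 1 and 2 and of the interaction draw on this pair. Depth, 21541334 to 40490283 reads per library, gives at least 180 reads for each of the 10 genes; the p-values measure the spread between libraries. All 10 genes are named, and of the other lists the catalytic counterparts, Psme3 and whichever called gene moved furthest up or down, with further members named after their values were seen. The genes and lists were chosen with earlier results of these data known. Alternatives were another normalization, DESeq2 1.42.0, other filters, the length offset, the replicate block, a joint fit, a fold cutoff and leaving out libraries or replicate sets. A gene of the upstream list is not reported by name here.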

Additional observations from a re-analysis of the deposited data

Results flagged for a closer look

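The Tapbp level of FI3KO TRAP replicate 2, 488.2 CPM, stood apart from the other 5 FI3KO libraries, at 524.3 to 537.4 CPM: the gap was 0.734 of the range of the group. It was the only such library in 22 groups of values tested, where chance gives about 1.1. Leaving that library out left Tapbp without a call in TRAP RNA.

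The FI3KO effect differed between TRAP replicates 1 and 2 and replicates 3 to 6 for 3 of the 10 genes, against 26.5% of all genes tested. The difference (replicates 1 and 2 minus 3 to 6, log2, edgeR's interaction test) was -0.713 for Psmb9 (adjusted p = 0.00701), 0.629 for Psmb10 (adjusted p = 0.00158) and -0.478 for Erap1 (adjusted p = 0.0305). For Psmb9 and Psmb10 it stayed below 0.05 in each of the 14 alternatives, with adjusted p up to 0.0363 and 0.0148. The sets also differed in the sum of myeloid markers within each genotype, and the part of this in the differences was not tested.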

How the results depend on the processing

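In SVF-derived adipocytes all 10 genes stayed called higher in each of 13 alternatives, with log2 fold changes from 0.52 to 1.36 and adjusted p up to 0.00241 (edgeR or DESeq2). The fold cutoff was not among these 13, and with it 4 of the 10 were called. In TRAP RNA 210 of 220 values for the 10 genes kept their direction and their side of the threshold. The fold cutoff was not among these either, and with it none of the 10 was called in TRAP RNA. The count of called genes, 5960 in SVF-derived adipocytes, was 583 with a fold cutoff, 3800 with the length offset and 1572 in a joint fit of 18 libraries. The count in TRAP RNA, 5095, was 901 with the fold cutoff and 500 in replicates 1 and 2 alone. The count for the difference between replicate sets, 3613, ranged from 2033 (without WT replicate 2) to 3874 (without WT replicate 3), and was 2107 without WT replicate 1. Reversed in sign were Erap1 with the length offset (-0.0124) and, in replicates 1 and 2 alone, Tapbp (0.0217), Psmb9 (-0.22), Psme2 (0.0014) and Erap1 (-0.20), none of them called. The interaction of Tap2 was 0.00028 with at least 10 counts in each library. Leaving out each library in turn, the interaction ranged from -0.19 to 0.11 for Tap2 and from -0.0114 to 0.14 for Psme2. With the length offset Psme1 fell by 0.24 in FI3KO TRAP RNA (adjusted p = 0.0415, edgeR, other alternatives up to 0.818). The interaction passed for Tap1 without FI3KO replicate 1 (adjusted p = 0.0269) and for Psme1 without FI3KO replicate 2 (0.00898) or WT replicate 3 (0.0338, edgeR), and did not pass for either with all libraries (0.110 and 0.0585). The cause of these changes was not tested. With the replicate block, edgeR called 5658 genes in SVF-derived adipocytes and 3632 in TRAP RNA, and no call for the 10 genes changed. Same-numbered libraries did not deviate together (correlations of -0.05 to 0.06 and -0.37 to 0.10), so the numbers were not taken as pairs.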
